A study of Mus musculus with 10 samples.

Results

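The Hedgehog pathway carries signals from the secreted ligand Sonic hedgehog to the Gli transcription factors. Transcripts of 10 genes of this pathway were compared between the cortex of Emx2 knockout and wild-type mouse embryos. The genes were taken by symbol from all 56748 listed genes, and each of the 10 matched 1 gene identifier. They are the ligand gene Shh, the receptor gene Ptch1, the transducer gene Smo, the transcription factor genes Gli1, Gli2 and Gli3, the antagonist gene Hhip and the coreceptor genes Gas1, Boc and Cdon. The libraries were bulk RNA-seq of cortex at E12.5, labelled Emx2 KO for 5 libraries and WT for 5, and the series describes the tissue as dorsal telencephalon. The series is about the cooperation of Emx2 with Dmrta2 in cortex development. The labels do not give the knockout allele, the strain or the sex, nor whether a library came from 1 embryo or from a pool. The p-values below therefore measure the spread between libraries, which may be partly technical.

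As background, the pathway is held silent without ligand: Ptch1 keeps Smo inactive and Gli3, in part Gli2, is processed to a repressor in the primary cilium. When Shh binds Ptch1 and a coreceptor, Smo enters the cilium and Gli2 and Gli3 act as activators. Gli1, Ptch1 and Hhip are themselves target genes and serve as readouts of the pathway. In the forebrain Shh comes from ventral sources such as the medial ganglionic eminence and the hypothalamus, and Gli3 as a repressor is known for its part in forming the dorsal telencephalon.

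Library totals lay between 9720840 and 35674113 counts, and fell into 5 large libraries (3 knockout, 2 wild type) and 5 small ones (2 knockout, 3 wild type). Titles close with 1 of 3 codes, which the labels do not explain, and each code holds both genotypes. Within each code the knockout and wild-type libraries are of different size classes, so size and genotype cannot be told apart there. The large libraries alone set knockouts of codes 241022 and 31022 against wild types of code 14922, and the small ones the reverse, so there code and genotype cannot be told apart. Reads assigned to Emx2 served as the check of the labels. In wild type they stood at 208, 179, 175, 182 and 186 CPM (counts scaled to a common library total, with TMM factors) in replicates 1 to 5, numbers given in accession order that pair no samples. The knockout libraries gave 146, 129, 109, 137 and 94.6 CPM. Every knockout library was below every wild-type library, but 66.3% of the wild-type mean remained. Gene-level counts cannot tell which stretch of Emx2 the allele lacks. None of the dorsal markers Emx1, Pax6, Lhx2, Eomes, Tbr1 and Neurod6 was at 0 in any library. The same held for the markers of choroid plexus, meninges, endothelium, microglia and blood given below, so this does not test the tissue label. Of the 6 dorsal markers, 4 (Emx1, Pax6, Eomes and Tbr1) were called higher in knockout and 0 lower, by the test described below. Among all genes tested 12.9% were called higher and 9.33% lower. Of those at 10 CPM or more on average, 29.9% were called in either direction. Lhx2 and Neurod6 did not pass (log2 fold change -0.04 and -0.31). The summed level of the 6 markers was 1547 to 1847 CPM in wild type and 1787 to 2248 CPM in knockout.

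Of the 10 Hedgehog genes 1 rose in the knockout, Gli2, and 0 fell. Genotype was tested by edgeR's quasi-likelihood F statistic, adjusted by Benjamini and Hochberg over the 18163 genes tested, with a threshold of 0.05. Among all genes tested 12.9% were called higher and 9.33% lower, 22.2% together, so 1 call among 10 genes does not exceed the background. At an unadjusted p under 0.05, 3 of the 10 were higher and 1 was lower. The largest p among these, that of Boc (edgeR unadjusted p = 0.0486), ranked only 6093 among the 18163 genes tested. Many other genes thus passed this cut too. DESeq2 called 2 higher and 1 lower, where 20.8% of all genes it tested were called. With limma-voom 1 was higher and 1 lower, against 24.3% of all genes called. The median log2 fold change of the 10 genes was 0.22, against -0.01 over all genes tested. Knockout and wild-type levels were fully apart for 1 of the 10 genes, against 16.7% of all tested.

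**Figure D1:**
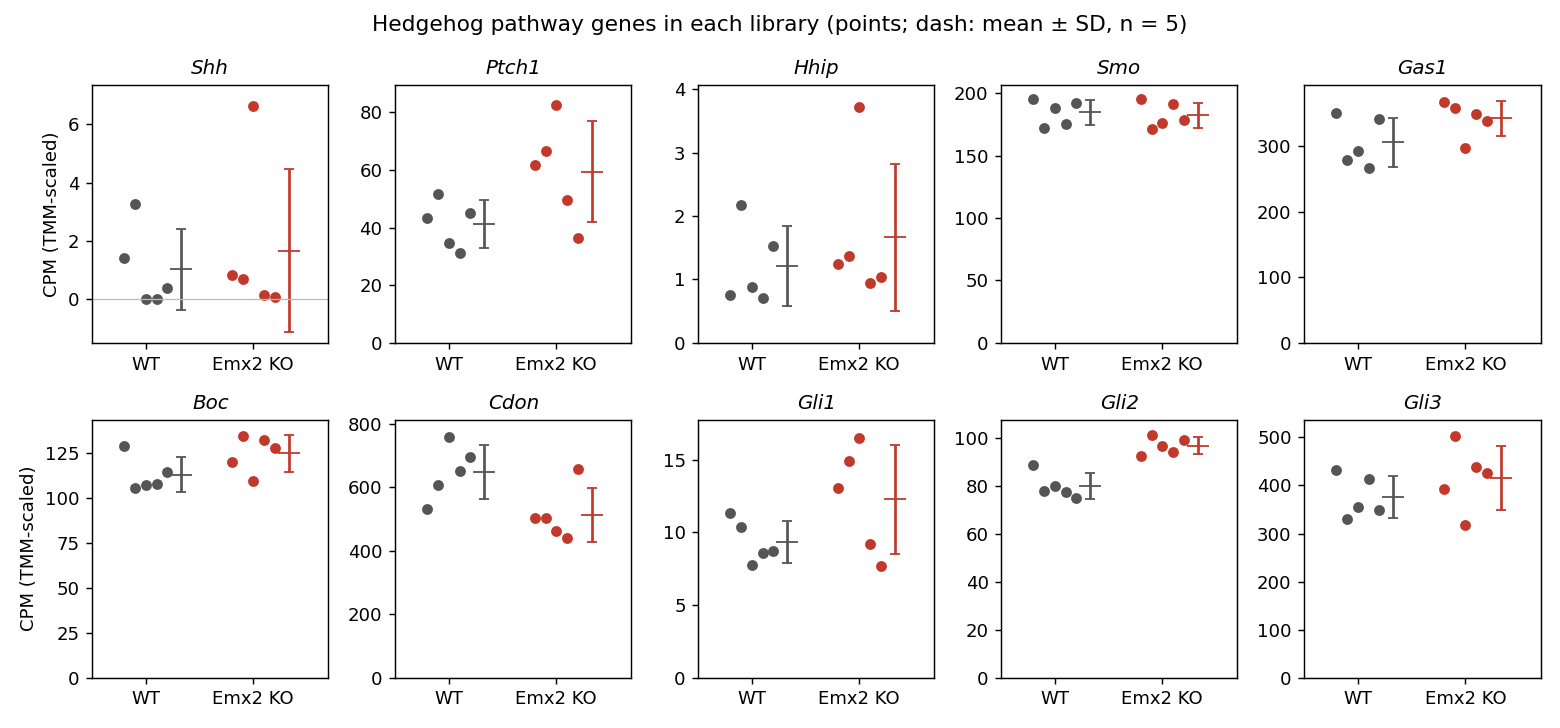
Level of each of the 10 Hedgehog pathway genes in CPM (vertical axis, linear), with 1 point per library in replicate order, for wild type (gray) and Emx2 knockout (red). The dash and bar beside the points give the mean ± SD of 5 libraries. Only for Gli2 do the 2 groups of points not overlap, and 1 knockout library stands far above the others for Shh and Hhip.

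Shown first are the promoter stretches of Gli2, the gene that was called, of its paralogue Gli3 and of the target gene Ptch1, as the 250 bases before the gene start. They were taken from RefSeq's table on GRCm38.p6, where 7 of the 10 genes had a matching entry, and are written 5′ to 3′ on the gene's strand. Capitals mark the 7-letter core ACCACCC of the sequence that Gli proteins bind, on either strand. Positions are chr1:119053620-119053869 (minus strand) for Gli2, chr13:15463473-15463722 (plus strand) for Gli3 and chr13:63565736-63565985 (minus strand) for Ptch1.
Gli2: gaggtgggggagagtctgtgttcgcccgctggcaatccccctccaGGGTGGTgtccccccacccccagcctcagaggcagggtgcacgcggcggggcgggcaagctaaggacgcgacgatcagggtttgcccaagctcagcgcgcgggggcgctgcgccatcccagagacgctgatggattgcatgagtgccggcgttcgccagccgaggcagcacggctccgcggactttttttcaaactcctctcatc
Gli3: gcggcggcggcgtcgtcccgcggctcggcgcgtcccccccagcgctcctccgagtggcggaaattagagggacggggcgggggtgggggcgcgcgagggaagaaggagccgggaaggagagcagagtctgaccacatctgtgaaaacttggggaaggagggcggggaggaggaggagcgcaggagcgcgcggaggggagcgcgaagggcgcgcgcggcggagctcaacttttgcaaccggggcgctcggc
Ptch1: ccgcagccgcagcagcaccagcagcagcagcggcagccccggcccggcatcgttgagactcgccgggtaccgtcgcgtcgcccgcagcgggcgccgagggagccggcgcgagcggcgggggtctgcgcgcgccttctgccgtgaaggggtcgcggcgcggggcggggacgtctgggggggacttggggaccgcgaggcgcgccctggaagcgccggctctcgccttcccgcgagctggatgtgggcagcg
The core was found once among the 7 promoters searched, in Gli2, starting 205 bases before the gene start on the opposite strand, where it reads GGGTGGT. Among all 32851 promoters of the same set, 3.92% hold the core in the same window. The longer Gli consensus GACCACCCA, which contains the core, was found in 0 of the 7 and in 0.225% of all promoters, and the homeodomain core TAATTA in 0 of the 7 and in 4.84%. Such a match describes letters only.

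The ligand gene Shh (ENSMUSG00000002633) was close to the limit of detection and was uneven between libraries of the same genotype. The wild-type libraries held 17, 45, 0, 1 and 4 counts, which is 1.42, 3.27, 0, 0.03 and 0.41 CPM. For the library with 0 counts, a floor of 3 counts allows a level of up to 0.083 CPM, for counting error only. The knockout libraries held 25, 19, 89, 4 and 1 counts, or 0.82, 0.71, 6.61, 0.16 and 0.07 CPM. Knockout replicate 3 was above every wild-type library, followed by wild-type replicates 2 and 1, and the ranges of the genotypes overlapped. The log2 fold change was 0.78 ± 1.40 (SE, edgeR adjusted p = 0.76), with a 95% interval from -2.38 to 3.94. Without knockout replicate 3 it was -0.92 (edgeR adjusted p = 0.69), and in the large libraries alone Shh was called higher (edgeR adjusted p = 0.0156), where the 2 wild-type libraries held 0 and 1 counts. The paralogous ligands were as rare: Ihh stood at 0.923 ± 0.389 CPM in knockout and 0.861 ± 0.373 CPM in wild type (SD, n = 5), and Dhh, which did not pass the filter on low counts, at 0.282 ± 0.058 and 0.315 ± 0.103 CPM.

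Ptch1 (ENSMUSG00000021466), the receptor that Shh inhibits and also a target gene, was higher on average in knockout but did not pass. Wild-type levels were 43.5, 51.7, 34.8, 31.1 and 45.3 CPM. In knockout they were 61.8, 66.6, 82.7, 49.6 and 36.3 CPM. Knockout replicates 1, 2 and 3 were above every wild-type library, while replicates 4 and 5 lay within the wild-type range. The log2 fold change was 0.54 ± 0.22 (SE, edgeR adjusted p = 0.107), with a 95% interval from 0.06 to 1.02. Ptch1 was called with DESeq2 (adjusted p = 0.0284), in the large libraries alone (log2 fold change 0.85, edgeR adjusted p = 0.004) and without knockout replicate 5 (0.67, edgeR adjusted p = 0.0254). Within the title codes the log2 ratio of mean CPM was 0.43 (241022), 0.85 (14922) and 0.13 (31022, 1 library each).

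Hhip (ENSMUSG00000064325), a membrane protein that binds and sequesters Hedgehog ligands, was rare, with 1.66 ± 1.16 CPM in knockout and 1.21 ± 0.633 CPM in wild type (SD, n = 5). Its highest levels were 3.71 CPM in knockout replicate 3 and 2.18 CPM in wild-type replicate 2, the same libraries in which Shh was highest, and the other 8 libraries lay between 0.713 and 1.53 CPM. This gave a log2 fold change of 0.47 ± 0.44 (SE, edgeR adjusted p = 0.51), with a 95% interval from -0.50 to 1.44. Without knockout replicate 3 it was 0.00054 (edgeR adjusted p = 0.999), and without wild-type replicate 2 it was 0.79 (adjusted p = 0.242). Smo (ENSMUSG00000001761), the transducer that Ptch1 restrains, was close in both genotypes, at 182 ± 10.3 CPM in knockout and 185 ± 10.3 CPM in wild type. Its log2 fold change was -0.02 ± 0.05 (edgeR adjusted p = 0.863), and the 95% interval ran from -0.12 to 0.09.

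The coreceptors Gas1, Boc and Cdon bind Shh together with Ptch1. Cdon (ENSMUSG00000038119) was lower on average in knockout, at 503, 502, 460, 439 and 658 CPM in replicates 1 to 5. The wild-type libraries stood at 532, 606, 757, 651 and 696 CPM. Of the knockout libraries 4 were below every wild-type library, and replicate 5 was above 3 of the 5. The log2 fold change of -0.34 ± 0.12 (SE, 95% interval -0.60 to -0.08) did not pass (edgeR adjusted p = 0.0647). It passed without knockout replicate 5 (-0.45, edgeR adjusted p = 0.00567), without wild-type replicate 1 (-0.40, adjusted p = 0.0327), in the large libraries alone (-0.55, adjusted p = 0.00368) and with upper-quartile scaling, no scaling factor, DESeq2 and limma-voom. In the small libraries alone it was -0.13 (edgeR adjusted p = 0.748).

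Gas1 (ENSMUSG00000052957), which is anchored in the membrane by lipid, did not pass and its groups overlapped. It measured 368, 358, 297, 349 and 338 CPM in knockout and 350, 278, 293, 267 and 340 CPM in wild type. Its log2 fold change was 0.16 ± 0.08 (SE, edgeR adjusted p = 0.193, 95% interval -0.02 to 0.34). Boc (ENSMUSG00000022687), an immunoglobulin family protein related to Cdon, did not pass either (125 ± 10.3 against 113 ± 9.69 CPM, log2 fold change 0.15 ± 0.07, edgeR adjusted p = 0.145, 95% interval 0.00 to 0.30). In the large libraries alone both were called higher, Gas1 at 0.36 (edgeR adjusted p = 0.00469) and Boc at 0.26 (adjusted p = 0.0184), and without wild-type replicate 1 Boc passed too (0.20, adjusted p = 0.0389). Of the summed coreceptor level per exon length, Cdon made up 31.6% ± 3.62 in knockout and 39.6% ± 4.76 in wild type, and Gas1 55.1% ± 3.11 and 48.5% ± 4.02 (SD, n = 5). For both genes the ranges of the genotypes overlapped. These shares describe the libraries and were not tested.

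Gli2 (ENSMUSG00000048402), the main activator among the Gli factors, was higher in every knockout library than in any wild-type library, by a small amount. In wild type it stood at 88.9, 78.1, 79.9, 77.5 and 74.9 CPM. The knockout libraries gave 92.7, 101, 96.5, 94.2 and 99.3 CPM. The means were 96.8 ± 3.53 against 79.9 ± 5.36 CPM (SD, n = 5), which is 1.21-fold, and the log2 fold change was 0.28 ± 0.05 (SE, edgeR adjusted p = 0.00156, 95% interval 0.17 to 0.38). Leaving out each library in turn gave 0.26 to 0.32, past the threshold in 10 of 10 fits (edgeR adjusted p = 0.000366 to 0.00661). Within the title codes the log2 ratio of mean CPM was 0.22 (241022), 0.31 (14922) and 0.33 (31022, 1 library each). With code 241022 alone Gli2 did not pass (0.22, edgeR adjusted p = 0.293), nor in the small libraries alone (0.28, adjusted p = 0.127), fits in which 2.85% and 3.56% of all genes tested were called. In bulk tissue more cells that hold a transcript and more transcript per cell cannot be told apart.

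Gli3 (ENSMUSG00000021318), the main repressor, was the most abundant Gli transcript and did not pass. Its levels were 393, 502, 318, 439 and 426 CPM in knockout and 431, 331, 355, 413 and 348 CPM in wild type, so the wild-type range lay within the knockout range. Its log2 fold change was 0.15 ± 0.12 (SE, edgeR adjusted p = 0.426, 95% interval -0.11 to 0.40). Reads of Gli3 and of Gm6556, an overlapping transcript on the opposite strand with 188 shared exon bases, cannot be told apart, since no source used here states the strand setting of the counting. Gm6556 held 1159 counts over all 10 libraries, and the lowest single library held 3424 counts of Gli3. The same limit holds for Shh, Gli1, Hhip and Gas1, whose exons also overlap transcripts on the opposite strand. For Shh these are 9530036O11Rik (446 shared bases, 7 counts in all) and Gm26894 (361 bases, not listed). Gli1 shares 265 bases with Gm47200 (9 counts) and 62 with Arhgap9 (94 counts). Gas1 shares 589 bases with Gm48488 (327 counts), and Hhip 175 with Gm27820 (not listed).

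Gli1 (ENSMUSG00000025407), an activator that is itself switched on by the pathway, did not pass. It measured 13.1, 15.0, 16.5, 9.21 and 7.68 CPM in knockout. In wild type the levels were 11.3, 10.4, 7.73, 8.58 and 8.75 CPM. Knockout replicates 1, 2 and 3 were above every wild-type library, as for Ptch1, and replicate 5 was the lowest of all 10. As a log2 fold change this was 0.40 ± 0.20 (SE, edgeR adjusted p = 0.182, 95% interval -0.03 to 0.84), and without knockout replicate 5 it passed (0.53, edgeR adjusted p = 0.0466). Per exon length, Gli3 made up 74.3% ± 1.75 of the summed Gli level in wild type and 72.1% ± 3.77 in knockout, Gli2 22.2% ± 1.41 and 23.8% ± 2.54, and Gli1 3.57% ± 0.528 and 4.19% ± 1.56 (SD, n = 5), with overlapping ranges for each.

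Set in order by level per exon length (CPM per kilobase of exon), the 10 genes kept the same order in the means of both genotypes. In wild type Gas1 led at 103 ± 12.7, followed by Cdon at 84.0 ± 11.1, Gli3 at 39.2 ± 4.56, Smo at 32.9 ± 1.83, Boc at 25.3 ± 2.18 and Gli2 at 11.6 ± 0.78 CPM per kilobase (SD, n = 5). The pathway's target genes came last, with Ptch1 at 2.91 ± 0.584 and Gli1 at 1.87 ± 0.293, then Shh at 0.36 ± 0.485 and Hhip at 0.133 ± 0.07 CPM per kilobase. The wild-type ranges of 4 neighbouring pairs overlapped: Gas1 with Cdon, Gli3 with Smo, Ptch1 with Gli1, and Shh with Hhip. Coreceptor and Gli3 transcripts were thus at higher levels per length than those of the ligand or the target genes in these libraries.

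Nkx2-1 is a transcription factor of the medial ganglionic eminence and hypothalamus that Shh is known to induce. Nkx2-1 was highest in knockout replicate 3 and wild-type replicate 2, as was Shh, and did not pass (1.24 ± 1.23, edgeR adjusted p = 0.541). It was called higher without wild-type replicate 2 (3.84, edgeR adjusted p = 0.0258) and without that library and knockout replicate 3 (3.08, adjusted p = 0.0242), and stood at 0.49 without knockout replicate 3 alone. In wild type it stood at 2.25, 28.8, 0.803, 0.832 and 0.61 CPM. The knockout libraries gave 16.7, 12.2, 40.9, 3.44 and 2.84 CPM. Knockout replicate 3 ranked first of all 10 libraries for Nkx2-1, Shh, Hhip, Ptch1 and Gli1, and wild-type replicate 2 ranked second for Nkx2-1, Shh and Hhip, with rank 4 for Ptch1 and rank 5 for Gli1. Wild-type replicate 1 had rank 3 for Shh, at 1.42 CPM, but rank 7 for Nkx2-1. The summed level of 10 markers of the ventral telencephalon (Nkx2-1, Lhx6, Lhx8, Gsx2, Dlx1, Dlx2, Dlx5, Dlx6, Gad1 and Gad2) was 48.4 to 239 CPM in wild type, highest in replicate 2, and 129 to 563 CPM in knockout, highest in replicate 3 and lowest in replicate 5. Of the 9 tested, 5 rose (Gsx2, Dlx1, Dlx2, Dlx5 and Gad1) and 0 fell, where 12.9% of all genes tested rose and 9.33% fell. Nkx2-1, Lhx6 (edgeR adjusted p = 0.264), Dlx6 (0.0641) and Gad2 (0.0857) did not pass. At an unadjusted p under 0.05, 7 of the 9 rose and 0 fell. DESeq2 called 7 higher and 0 lower, where 20.8% of all genes it tested were called. Lhx8 was at 0 in some libraries and was not tested by edgeR. The part of this difference in the levels of Shh, Ptch1, Hhip and Gli1 was not tested. Without knockout replicate 3 and wild-type replicate 2, chosen after seeing the data, Gli2 was again the only one of the 10 called (0.26, edgeR adjusted p = 0.01), and Ptch1 was at 0.48 (adjusted p = 0.143).

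**Figure D2:**
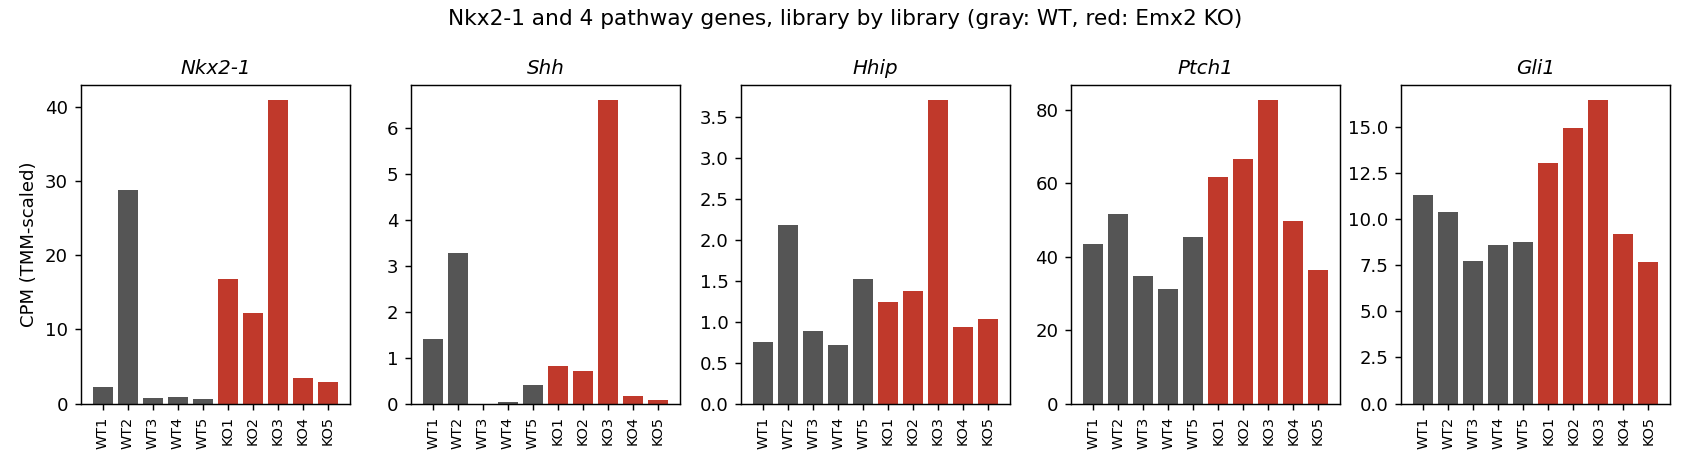
CPM of Nkx2-1, Shh, Hhip, Ptch1 and Gli1 (vertical axes, linear from 0) in each of the 10 libraries, wild type in gray (WT1 to WT5) and knockout in red (KO1 to KO5), numbered by replicate. KO3 is highest in all 5 panels, and WT2 is the second highest for Nkx2-1, Shh and Hhip.

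Of a list of 11 other genes that act on the ligand or its reception, 9 were tested. Of these 2 rose, 1 fell and 6 did not pass, where 12.9% of all genes tested rose and 9.33% fell. Their median log2 fold change was 0.19. Scube1, a secreted and cell-surface glycoprotein of the family that helps release Hedgehog ligands, rose from 24.3 ± 3.49 to 56.6 ± 7.34 CPM (SD, n = 5). Its wild-type libraries gave 24.4, 26.2, 27.5, 24.9 and 18.4 CPM and its knockout libraries 53.8, 65.2, 54.2, 62.7 and 47.1 CPM, with no overlap. Scube1 had a log2 fold change of 1.21 ± 0.11 (SE, edgeR adjusted p = 2.62e-05), and it passed in 24 of 24 alternative fits. Scube2, its paralogue that binds the lipid of the ligand, was rare and rose too (1.01 ± 0.533 to 2.54 ± 0.655 CPM, 1.35 ± 0.32, adjusted p = 0.00904). Scube2 missed the threshold with code 241022 alone (1.08, adjusted p = 0.137), with code 14922 alone (1.11, adjusted p = 0.077) and in the small libraries alone (0.77, adjusted p = 0.466).

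Lrp2, also called megalin, a large endocytic receptor that takes up Shh in the forebrain, fell from 8.94 ± 2.44 to 4.77 ± 1.48 CPM (SD, n = 5; -0.87 ± 0.23, edgeR adjusted p = 0.0196). Lrp2 did not pass with code 241022 alone (-0.70, adjusted p = 0.215), with code 14922 alone (-0.73, adjusted p = 0.0705), in the large libraries alone (-0.40, adjusted p = 0.396) or without knockout replicate 3 and wild-type replicate 2 (-0.90, adjusted p = 0.0538).

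Among 27 genes of the cilium and of signal transduction, all tested, 6 rose, 2 fell and 19 did not pass, with a median log2 fold change of 0.04. Of all genes tested 22.2% were called, and 29.9% of those of at least 10 CPM on average, so these 8 calls are near the background. Prkaca, the catalytic subunit of protein kinase A, which phosphorylates Gli proteins ahead of their processing, rose from 109 ± 3.87 to 146 ± 8.95 CPM (SD, n = 5). Its knockout libraries stood at 153, 146, 147, 154 and 132 CPM and its wild-type libraries at 106, 113, 112, 108 and 104 CPM, without overlap. On the log2 scale the difference was 0.43 ± 0.05 (SE, edgeR adjusted p = 6.40e-05), and Prkaca passed in 24 of 24 alternative fits. Sufu, which holds Gli proteins back, rose by 0.31 ± 0.05 (adjusted p = 0.000762) and Gpr161, a ciliary receptor that restrains the pathway through cAMP, by 0.21 ± 0.05 (adjusted p = 0.00961). Grk2, a kinase that acts on active Smo, rose by 0.29 ± 0.04 (edgeR adjusted p = 0.000609). Mosmo, which lowers Smo at the cell surface, changed by -0.19 ± 0.04 (adjusted p = 0.00773) and Ift88, a component of intraflagellar transport, by -0.29 ± 0.08 (adjusted p = 0.0288). Gpr161 did not pass in the large libraries alone (0.11, adjusted p = 0.2), nor Mosmo in the small ones (-0.11, adjusted p = 0.39) or with code 14922 alone (-0.12, adjusted p = 0.243). With code 241022 alone and in the small libraries alone, Sufu, Gpr161, Grk2, Mosmo and Ift88 all missed the threshold. With code 14922 alone Gpr161 (0.23, adjusted p = 0.0973), Grk2 (0.26, adjusted p = 0.0726) and Ift88 (-0.36, adjusted p = 0.224) missed it too. Ift88 missed it in 8 of 24 alternative fits. Among these were the large libraries alone (-0.27, adjusted p = 0.103) and the fit with no filter on low counts (-0.28, adjusted p = 0.0555). Ift88 also did not pass without knockout replicate 4 (-0.29, adjusted p = 0.0538), without wild-type replicate 3 (-0.28, adjusted p = 0.0611) or without wild-type replicate 5 (-0.27, adjusted p = 0.0606).

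Of 11 genes known as Hedgehog targets in some tissue, 6 were tested and 5 were too rare (Nkx2-2, Nkx6-2, Foxa1, Foxa2 and Foxf1). Among the 6, Ccnd1 rose, Bcl2 fell and 4 did not pass, where 22.2% of all genes tested were called. Their median log2 fold change was 0.51. Ccnd1, which encodes cyclin D1 of the G1 phase, rose from 194 ± 30.3 to 347 ± 64.6 CPM (SD, n = 5; log2 fold change 0.84 ± 0.15, edgeR adjusted p = 0.00238). Its knockout libraries gave 406, 385, 360, 345 and 239 CPM and its wild-type libraries 246, 182, 181, 192 and 169 CPM, with knockout replicate 5 just below wild-type replicate 1. Ccnd1 answers to several other signals as well. It did not pass with code 14922 alone (0.68, edgeR adjusted p = 0.204) or in the small libraries alone (0.59, adjusted p = 0.272). The survival gene Bcl2 changed by -0.20 ± 0.06 (adjusted p = 0.0396) and missed the threshold in 15 of 24 alternative fits. Among these were the fits without knockout replicate 2 (adjusted p = 0.0806), 3 (0.0681) or 4 (0.0901) and without wild-type replicate 2 (0.0784), 3 (0.0598), 4 (0.103) or 5 (0.0891), at -0.21 to -0.17. Bcl2 also missed it with the title code (adjusted p = 0.0528) or the size class (adjusted p = 0.0507) as a block. Over these 3 lists, each gene counted once, 9 of 42 tested genes rose and 4 fell, so that 31% were called against 22.2% of all genes tested. The median log2 fold change of the 42 was 0.06. Among genes of at least 10 CPM on average the background was 29.9%.

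**Figure D3:**
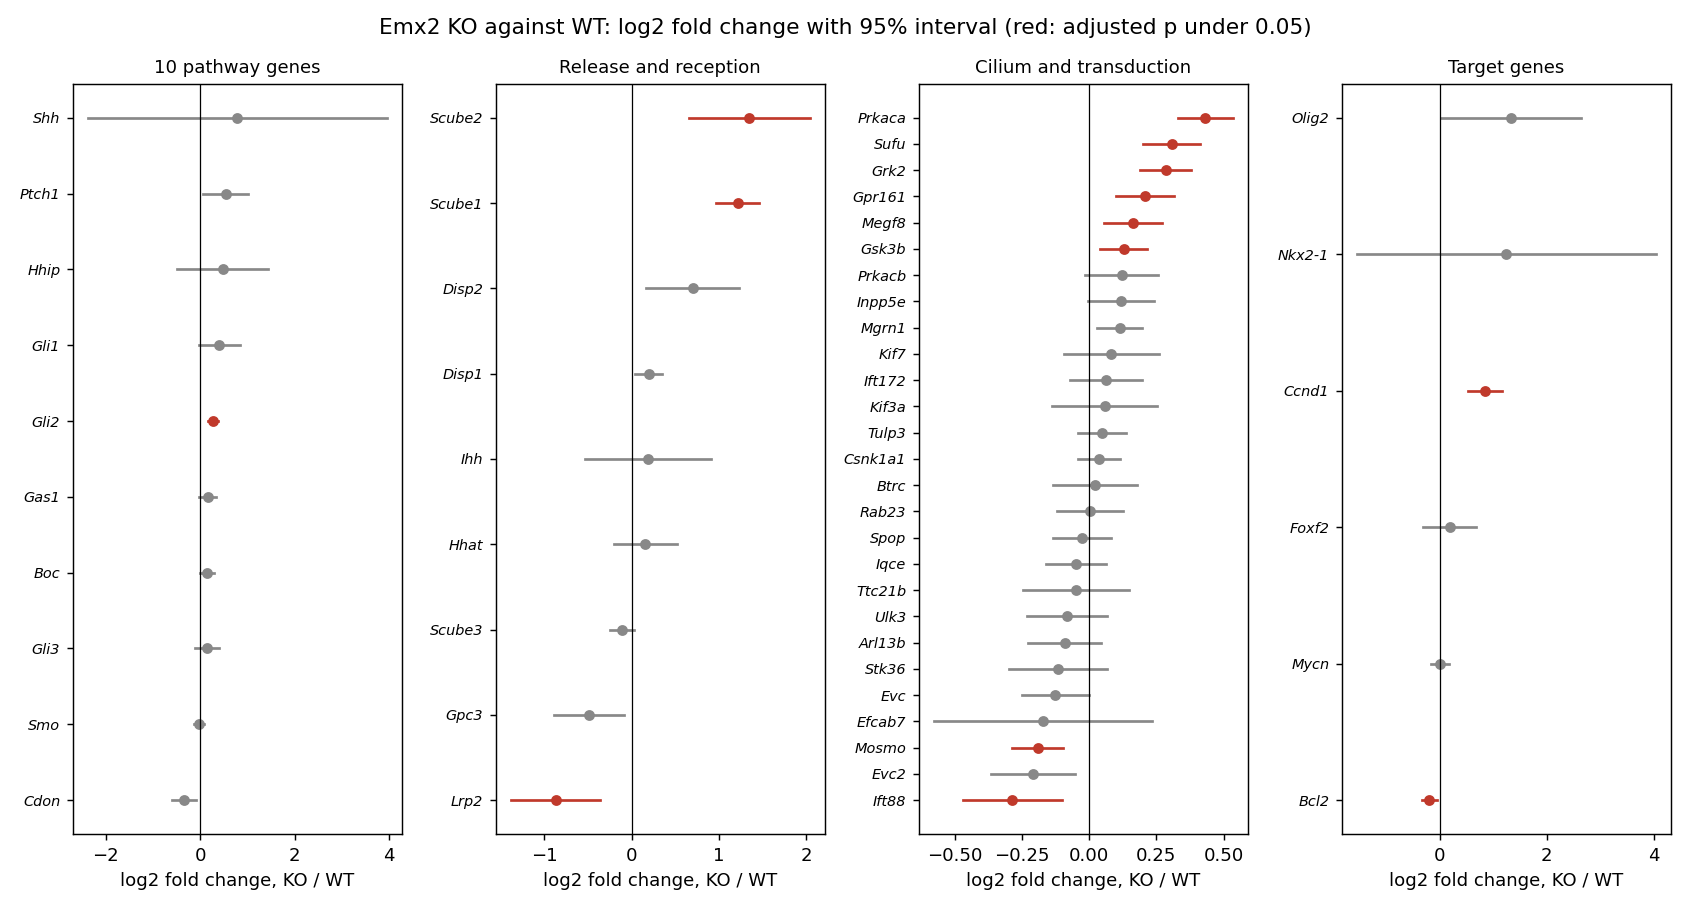
Log2 fold change of knockout over wild type (horizontal axes, scales differ between panels) with its 95% interval for the 10 Hedgehog genes and the tested genes of the 3 further lists. Red marks an edgeR adjusted p under 0.05: 1 of 10, 3 of 9, 8 of 27 and 2 of 6 genes from left to right. Of all genes tested 22.2% passed.

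Among protein-coding genes of at least 10 CPM on average, Cdc25b and Zfp827 were among the 3 whose profile over the 10 libraries was most like that of Gli2. Their root mean square difference from Gli2 in mean-centred log2 CPM was 0.051 for each, against a spread of 0.154 of Gli2 itself. For Cdon the nearest were Dusp14 (0.095), E130114P18Rik (0.104) and Mmd2 (0.106), against a spread of 0.255. For Ptch1 they were Peg10 (0.13), Pnmal1 (0.148) and Zfhx3 (0.162), against 0.418. The search ran over 9985 candidate genes.

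Markers of the other tissues moved as follows. For comparison, edgeR called 9.33% of all 18163 genes tested lower and 12.9% higher, and DESeq2 called 20.8% of its genes in either direction. An unadjusted p under 0.05 was common, as Boc (edgeR unadjusted p = 0.0486) ranked 6093 among all genes tested. The summed level of 7 choroid plexus markers was 14.9 to 23.8 CPM in knockout and 202 to 257 CPM in wild type, with 6 lower. For 8 markers of meninges and mesenchyme the ranges were 585 to 802 CPM in knockout and 545 to 785 CPM in wild type, with 1 of 8 lower (Dcn). The 6 hypothalamus and floor plate markers summed to 2.63 to 10.2 CPM in knockout, highest in replicate 3, and 2.22 to 5.59 CPM in wild type, highest in replicate 5. Nkx2-2 was at 0 in all 5 knockout libraries and in 3 of 5 wild-type libraries. Of the 2 tested by edgeR 0 passed (1, Pomc, higher at an unadjusted p under 0.05). DESeq2, which keeps more rare genes, called 1 other gene of this list lower, Foxa1 (adjusted p = 0.000317). The 7 diencephalon markers summed to 81.9 to 118 and 99.6 to 184 CPM, with 1 higher (Sox14) and 0 lower by edgeR. Of these markers 2, Lhx9 and Olig3, were lower at an unadjusted p under 0.05 (edgeR adjusted p = 0.052 and 0.0682) and with DESeq2 (adjusted p = 0.0176 and 0.00559). Single markers in this paragraph were named after their values were seen. Markers of endothelium, with 6 genes (150 to 258 against 184 to 249 CPM), microglia, with 6 (39.2 to 53.8 against 44.1 to 57.0 CPM), and blood, with 8 (2361 to 7448 against 2270 to 5511 CPM), had 0 genes past the threshold by edgeR and by DESeq2 (3, 1 and 1 at an unadjusted p under 0.05). The part of these differences in the levels of the Hedgehog genes was not tested.

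**Figure D4:**
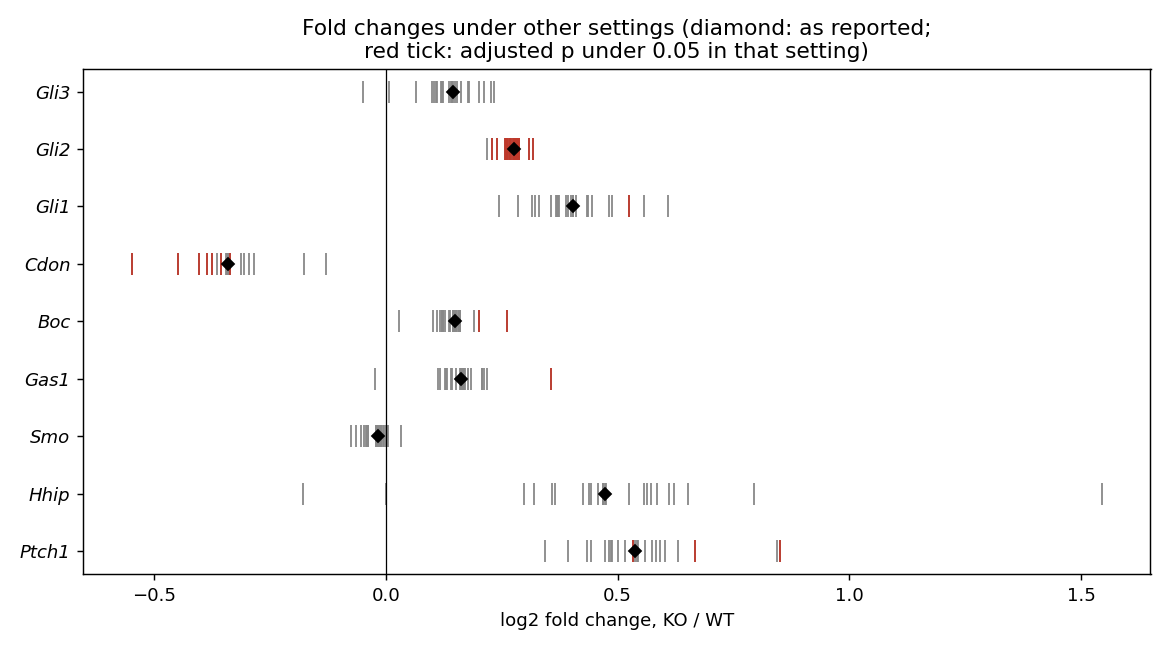
Log2 fold change of 9 of the Hedgehog genes (horizontal axis; Shh is left out for its width) as reported (diamond) and under other scalings, filters, tools, blocks and sets of libraries (ticks). Red ticks have an adjusted p under 0.05: Gli2 is red in 22 of 24 and Cdon in 7 of 24 settings.

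The genotype effect was compared between the title codes 241022 and 14922, each with 2 libraries per genotype. It differed for 0 of the 10 Hedgehog genes (edgeR interaction, adjusted p under 0.05; 1 at an unadjusted p under 0.05, Shh), against 1.64% of all genes tested. The largest difference for a gene other than Shh was that of Hhip (-1.73 on the log2 scale, adjusted p = 0.795). In code 241022 the knockouts were the large libraries and in code 14922 the small ones. A difference between the codes therefore cannot be told apart from an effect of library size.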

How the data were processed

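The deposited values are raw read counts per Ensembl gene from 10 libraries, without normalization. STAR 2.7.8a, featureCounts 1.6.3-p1 and bcl2fastq 2.20 are named in the submitters' processing notes, beside the builds GRCm39 and rn6. Strand setting and annotation release: not given in the sources used here. Symbols (52073 genes), biotypes and exon lengths came from GENCODE M21 (GRCm38) by identifier, so the exon lengths may differ from those counted. Genes were filtered with filterByExpr (minimum count 10), which left 18163, all 10 Hedgehog genes among them. They were scaled by TMM and fitted with edgeR 4.0.16 (R 4.3.3), genotype being the only term and the quasi-likelihood spread being estimated robustly. Tests were two-sided. SE and 95% intervals derive from the F statistic. Alternatives used DESeq2 1.42.0, limma 3.58.1, other scalings, blocks and subsets. A fit without robust estimation and one without knockout replicate 3 and wild-type replicate 2 were added after seeing the data. The fit was tested on simulated data.

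The genes and lists were chosen with earlier results of these data known. Named were the 10 genes, Emx2, the paralogues Dhh and Ihh, up to 6 genes past the threshold per further list, and the 3 nearest profiles for the 3 genes with the smallest p (log2 of CPM + 0.5). Some genes of these lists are not reported here and were left out of the counts.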

Additional observations from a re-analysis of the deposited data

Results flagged for a closer look

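Of 50 groups of 5 libraries (25 named genes in each genotype), 6 held 1 library far from the rest. A chance rate of about 1 in 20 would hold for independent groups of normally distributed values. Levels of rare genes need not be so distributed, and the genes share libraries, so the 6 do not measure an excess over chance. The ratio below is the distance to the nearest library over the whole range. Knockout replicate 3 led the knockouts for Shh (ratio 0.885, 6.61 CPM against 0.82 in the next) and for Hhip (0.843, 3.71 against 1.38 CPM). Knockout replicate 5 was the highest for Cdon (0.711, 658 against 503 CPM). Wild-type replicate 2 was the highest for Nkx2-1 (0.942, 28.8 against 2.25 CPM). For Ihh, wild-type replicate 5 (0.89, 1.53 against 0.75 CPM) and knockout replicate 4 (0.742, 1.6 against 0.853 CPM) were the highest of their groups, and they are the 2 libraries of title code 31022.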

How the results depend on the processing

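Gli2 kept its direction in all 24 alternatives (0.22 to 0.32) and its call in 22. The number of the 10 Hedgehog genes called higher, 1 as reported, was 2 with DESeq2, 5 in the large libraries alone, and 0 with title code 241022 alone and with the small libraries alone. Of all genes tested, these fits called 20.8%, 16.4%, 2.85% and 3.56% in either direction, against 22.2% as reported. The number called lower, 0 as reported, was 1 (Cdon) with upper-quartile scaling, no scaling factor, DESeq2, limma-voom and the large libraries. Leaving out each library gave 1 to 3 higher and 0 to 1 lower. For the 3 further lists, 9 higher became 3 with each code alone and 2 in the small libraries, and 4 lower became 7 with DESeq2, 0 with code 241022, 1 with code 14922 and 2 with either size class alone. Leaving out each library gave 7 to 11 higher and 2 to 5 lower. Emx2 did not pass with code 241022 alone (-0.49, edgeR adjusted p = 0.0653). Without 1 library it ranged from -0.66 to -0.51. The cause was not tested, but these subsets hold 4 or 5 libraries.

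The sign turned, always without a call, for Shh with code 241022 (-1.62) and without knockout replicate 3 (-0.92 to 2.24 over the fits that leave out 1 library), and for Nkx2-1 (-0.11) and Hhip (-0.18) with code 241022. It turned for Smo in the large libraries (0.033) and without knockout replicate 2 (0.002) or wild-type replicate 1 (-0.047 to 0.0055 over such fits), and for Gli3 with code 14922 (-0.049). It also turned for Gas1 in the small libraries (-0.024), and for Ihh there (-0.27) and without knockout replicate 4 (-0.13 to 0.43 over such fits). Codes 241022 and 14922, the small libraries and the large libraries alone gave 530, 1710, 626 and 3296 calls over all genes, against 4039. The title code block left 1 of the 10 called, and so did the size class block. Low counts limit the precision for Shh, Hhip, Ihh and Dhh, which held at most 89, 50, 39 and 13 counts in a library. The deepest library held 0 counts of Shh.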

Other observations

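Foxa1, a factor of the ventral midline that Shh induces in other regions, did not pass the filter on low counts of the reported edgeR fit. It held 20, 4, 13, 19 and 3 counts in the wild-type libraries and 2, 2, 1, 0 and 0 counts in the knockout libraries. The groups did not overlap, which was so for 16.7% of the genes that passed the filter, a set without Foxa1. Foxa1 was called lower by DESeq2 (adjusted p = 0.000317) and by edgeR without the filter (adjusted p = 0.000558). Its fitted fold changes rest on these few counts. Foxa2 held 2, 1, 6, 4 and 5 counts in wild type and 0, 2, 1, 1 and 0 counts in knockout, with an adjusted p of 0.121 by edgeR without the filter. Nkx2-2 was found in 2 wild-type libraries, replicate 1 (9 counts) and replicate 5 (15 counts), and in 0 knockout libraries, and was not called by DESeq2 (adjusted p = 0.198) or by edgeR without the filter (adjusted p = 0.414). The wild-type libraries with Nkx2-2 reads were not the one with the most Shh, which was replicate 2. These genes were named here after their values were seen.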
